A study of Mus musculus with 2 samples.

Results

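The loci described here are the microRNA genes inside Sfmbt2 on mouse chromosome 2, a dense run of Mir297, Mir466, Mir467 and Mir669 copies. A member is a row of the count tables whose Ensembl identifier maps to a microRNA gene on the same strand within the span of Sfmbt2. This gave 107 members of 1973 loci. Sfmbt2 lies on the plus strand of chromosome 2 from 10370510 to 10595253 (GRCm38). The other 12 microRNA genes of that span in GENCODE M21 were not analysed here.

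The libraries held RNA of under 30 nucleotides from the hindbrain of B6NCrl mouse embryos at day 14.5. There was 1 group of 2 replicates, collected on 24 July 2014 (replicate 1) and 30 July 2014 (replicate 2), with no treatment or genotype contrast. One label calls each sample a single hindbrain and another calls it pooled male and female, and both carry the same donor label. The labels also number the libraries as biological replicates 1 and 2, but do not say how the single and pooled descriptions fit together. The SD and n below describe the spread of these 2 libraries. The p-values of the binomial test below set their difference against counting error alone.

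Sfmbt2 encodes a Polycomb-group protein and is imprinted, with expression from the paternal allele in extraembryonic tissues. Rodents carry a large microRNA cluster in one of its introns, known for its role in the placenta. A microRNA hairpin is cut from its host transcript and diced into a short duplex, and the seed, bases 2 to 8 of the loaded strand, does most of the target pairing. Many products of this cluster are rich in alternating U and G or A and C, so that near-copies abound.

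How repetitive these families are can be read from their relatives on other chromosomes. The RefSeq table used here (GRCm38.p6) matched 8 of 10 such relatives (all but Mir297-1 and Mir466f-4) and 0 of the 107 members. The relatives' mature sequences are shown to make the repeat visible, 5′ to 3′ with the seed in capitals:
mmu-miR-466i-3p: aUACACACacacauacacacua
mmu-miR-466j: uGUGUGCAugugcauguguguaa
mmu-miR-466k: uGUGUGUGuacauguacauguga
mmu-miR-466q: gUGCACACacacacauacgu
mmu-miR-467f: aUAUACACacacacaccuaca
mmu-miR-467g: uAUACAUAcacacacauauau
mmu-miR-467h: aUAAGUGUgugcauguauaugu
mmu-miR-669n: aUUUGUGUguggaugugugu

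All 8 seeds differ from each other, yet most are common in the Sfmbt2 hairpins. The seed letters of miR-467g occur in 66 of the 107 member hairpins, those of miR-466j in 52 and those of miR-466i-3p in 51, while those of miR-467h occur in 1. These are matches anywhere in a hairpin on the gene strand, not mapped seeds of the members. No member hairpin holds a whole mature sequence of a relative, but 22 bases in a row of miR-466j and 22 of miR-466k occur in at least 1 member.

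All 107 members lie in a single intron, from 10461473 to 10523944 (GRCm38), and are therefore intronic. They span 53.0 kb, from Gm22072 at 10465287 to the end of Mir669h at 10518279. By symbol, 20 members are Mir466, 20 are Mir669, 14 are Mir467 and 5 are Mir297, 59 in all. The remaining 48 carry predicted-gene names beginning with Gm, and by hairpin alignment 44 of these are nearest to a Mir669 member, 3 to a Mir466 member and 1 to a Mir467 member. Their median identity to that nearest hairpin is 95.9% over the shorter of the pair. The lowest was Gm22239, at 83.5%. The nearest hairpin need not share the family of the name. Among named members, Mir669e and Mir669g were nearest to Mir466m, and Mir466h to Mir669f.

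Replicate 1 had 5826676 gene-strand counts on microRNA loci and replicate 2 had 6667238. The 5 hindbrain and neuronal loci chosen as tissue markers (Mir10a, Mir10b, Mir137, Mir128-1 and Mir149) were all detected. Together they had 203559 and 168060 counts per 1000000 gene-strand counts on microRNA loci (CPM). The lower sum in replicate 2 comes from Mir10a (108473 and 84327 CPM) and Mir10b (70563 and 55822 CPM), while Mir137, Mir128-1 and Mir149 had more CPM in replicate 2. For other cell types, levels in replicates 1 and 2 were 31783 and 36687 CPM for endothelium (Mir126a alone). Red cell markers (Mir451a, Mir144 and Mir486 summed) had 278 and 386 CPM, although Mir486 alone had 17.3 and 12.9 CPM. Myeloid cells had 194 and 208 CPM (Mir223 alone, as no row carried the symbol Mir142). Epithelial markers (Mir200c and Mir205 summed) had 70.4 and 54.3 CPM, although Mir200c alone had 18.2 and 19.9 CPM. Muscle markers had 14.9 and 16.2 CPM, all from Mir206, with Mir1a-1 and Mir133a-1 at 0. Reads that mapped to several positions were assigned to no locus, so these zeros do not show that the products were absent. The part of such cells in the counts of the Sfmbt2 members was not tested. Fewer cells of a type and less RNA per cell cannot be told apart in these bulk samples.

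The cluster gave few but clear counts, concentrated in a handful of loci. The detection minimum was 10 counts in both libraries, which held for 10 of the 107 members (9.35%), against 401 of all 1973 loci (20.3%). Another 18 members had some counts but missed the minimum, and 79 had 0 counts in both libraries. For a locus at 0 counts, the upper limit (3 counts) is 0.515 CPM for replicate 1 and 0.450 for replicate 2. This limit covers assigned reads only, since reads that mapped to several positions were assigned to no locus. Of the 79 members at 0, 41 had no stretch of 20 bases that other annotated hairpins lacked, among them 38 with an identical hairpin copy. The limit does not bound the level of these members. In all, 78 of the 79 shared a run of 20 bases with another hairpin, so it may fail for others too. The members together had 27367 counts in replicate 1 and 31955 in replicate 2. These made up 0.470% (95% Clopper-Pearson interval 0.464 to 0.475) and 0.479% (0.474 to 0.485) of the microRNA counts, a mean of 0.474% ± 0.00679 (SD, n = 2). Intervals and floors cover counting error only, since the tables count reads and not molecules. The 10 detected members held 99.9% of the cluster's counts in each library, and the opposite-strand columns held 0 counts for all members.

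Mir467d, Mir467e and Mir467c carried most of the signal, 81.7% of the cluster's counts on average. Mir467d, on chromosome 2 at 10507630 to 10507714, had 9743 counts in replicate 1 and 12357 in replicate 2. Its level was 1672 and 1853 CPM in replicates 1 and 2, a mean of 1763 ± 128 CPM (SD, n = 2), and its rank by mean level among all loci was 80. Mir467e, at 10505721 to 10505807, had 7233 and 8326 counts in replicates 1 and 2. Its levels were 1241 and 1249 CPM, or 1245 ± 5.26 CPM (SD, n = 2), with rank 87. Both lie in the downstream part of the cluster. Mir467c, at 10473931 to 10474027 near the upstream end, had 5111 and 5764 counts in replicates 1 and 2. Its levels were 877 and 865 CPM, or 871 ± 8.94 CPM (SD, n = 2), with rank 100. The order Mir467d, Mir467e, Mir467c was the same in both libraries, with no overlap between their ranges. The other 11 members named Mir467 had at most 1 count in a library.

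Mir669 supplied most of the rest, through 5 detected members of 20. Mir669o, at 10514300 to 10514395, had 2198 and 2321 counts in replicates 1 and 2, or 377 and 348 CPM (mean 363 ± 20.6, SD, n = 2). Mir669l, at 10468971 to 10469068, had 1913 and 1983 counts, or 328 and 297 CPM (mean 313 ± 21.8, SD, n = 2). These 2 loci lie on opposite flanks of the cluster, and their levels were close but did not overlap. Mir669c, at 10509296 to 10509404, had 791 and 828 counts, or 136 and 124 CPM. Mir669e, at 10467495 to 10467613, had 186 and 190 counts, or 31.9 and 28.5 CPM. All 4 loci had more counts but fewer CPM in replicate 2, the deeper library. Mir669h, the last member of the cluster, had only 36 and 27 counts, or 6.18 and 4.05 CPM.

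Mir466 and Mir297 had few assigned reads. Mir466n, at 10513741 to 10513834, was the only detected member of 20 named Mir466, with 96 and 88 counts in the libraries, or 16.5 and 13.2 CPM. Among 5 members named Mir297, Mir297a-2 alone was detected, with 27 and 24 counts, or 4.63 and 3.60 CPM. Its range overlapped that of Mir669h, the next in the order of levels, whereas no other neighbours in that order overlapped. None of the 48 members with Gm names was detected, and together they had 8 counts in replicate 1 and 15 in replicate 2. Mir297a-2 and Mir669h were the lowest detected members, while Mir669f (5 counts in replicate 1 and 11 in replicate 2) and Mir466 (5 in each) came next below the minimum. A small RNA read covers a whole mature strand, so these counts were not divided by hairpin length, and they do not separate the arms of a hairpin. Ligation and amplification can favour some small RNAs over others, and that effect on the order of loci was not tested.

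**Figure D1:**
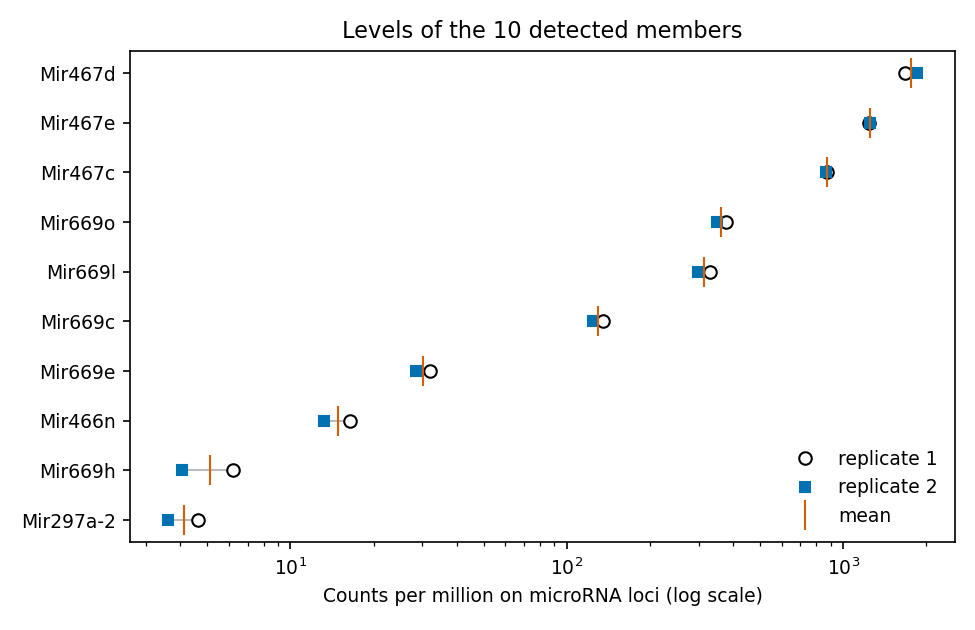
Level of each detected member in CPM (log axis), with replicate 1 as open circles, replicate 2 as blue squares and the mean as an orange bar. The 3 Mir467 loci sit between 865 and 1853 CPM, above all Mir669 loci, and only Mir669h and Mir297a-2 overlap.

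As shares of the cluster, Mir467 held 81.7% ± 1.46, Mir669 17.8% ± 1.40, Mir466 0.357% ± 0.0533, Mir297 0.0986% ± 0.0156 and the Gm-named members 0.0381% ± 0.0125 (SD, n = 2). The Mir467 share was 80.7% in replicate 1 (interval 80.2 to 81.2) and 82.8% in replicate 2 (82.4 to 83.2). The Mir669 share was 18.8% in replicate 1 (18.3 to 19.2) and 16.8% in replicate 2 (16.4 to 17.2). These intervals do not overlap, so the balance of assigned reads among the families differed between the libraries by more than counting error. Multimapping reads are left out, so these shares do not give the balance of all products of the families. A share within the cluster does not depend on how the libraries are scaled.

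Detected loci lay on the flanks of the cluster, and its middle was nearly empty. Upstream, from Gm22072 to Mir467c over 8.74 kb, 4 of 17 members were detected. Downstream, from Mir467e to Mir669h over 12.6 kb, 6 of 30 were detected. Between them, over 30.3 kb, 0 of 60 members were detected, 55 had 0 counts in both libraries, and no member had more than 3 counts in a library. That middle held 5 counts in replicate 1 and 7 in replicate 2, against 7249 and 7981 upstream and 20113 and 23967 downstream. The segments were drawn after the counts were seen and are a description.

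The 18 members with counts below the minimum were scattered rather than grouped in one family. By name, 7 were Gm loci, 5 Mir466, 3 Mir669, 2 Mir467 and 1 Mir297. Mir466 had 5 counts in each library, and Mir297b had 3 in replicate 1 and 4 in replicate 2. Mir466o and Gm25263 each had 4 and 2 counts, Mir669a-3 had 3 and 1, Mir466h had 2 and 3, and Mir466b-3 had 1 and 3. Gm22072 had 2 and 7 counts. Apart from Mir669f, the others had at most 2 counts in a library, and these were Mir467b, Mir467a-1, Mir669d-2, Mir466l, Gm22239, Gm22925, Gm22678, Gm23988 and Gm24806. At such counts no order among these loci can be read. The undetected 97 members together had 33 counts in replicate 1 and 47 in replicate 2.

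**Figure D2:**
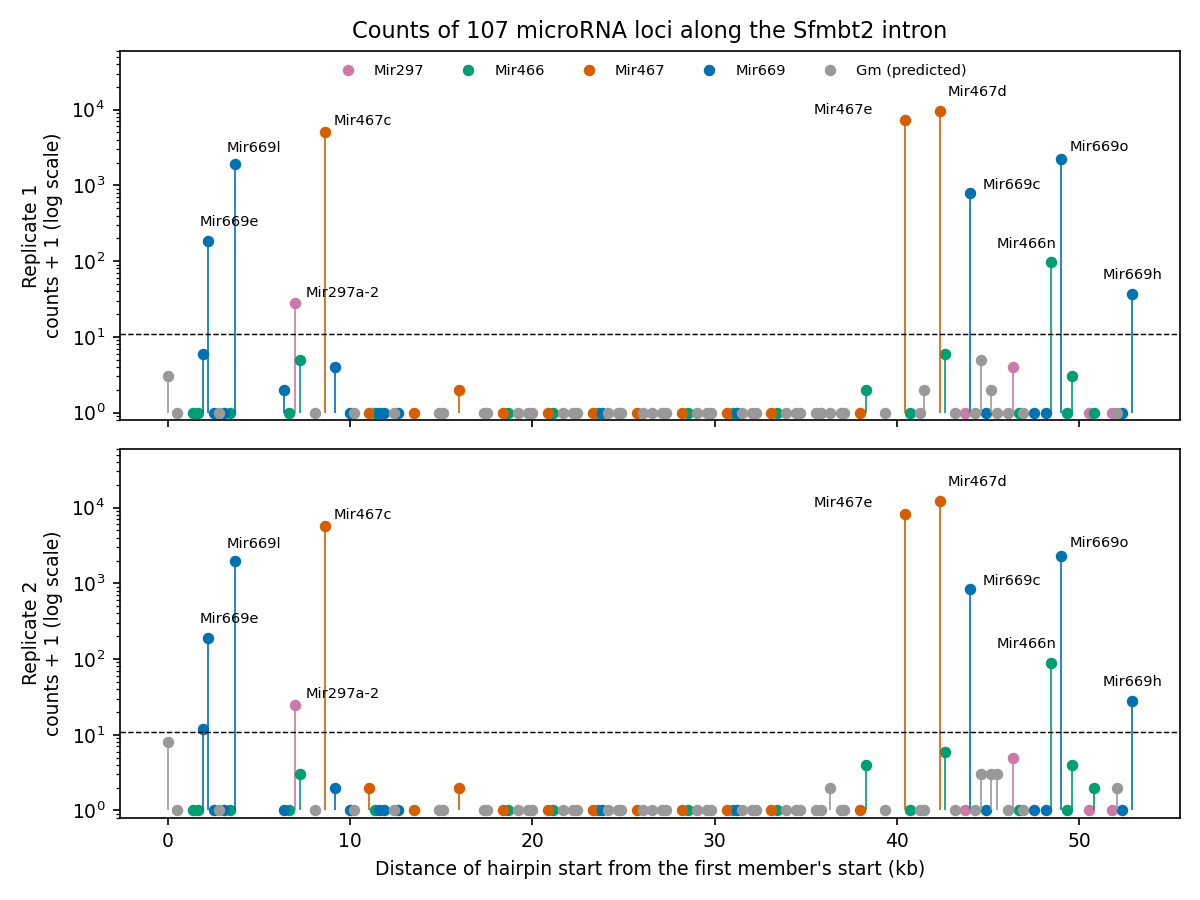
Counts plus 1 (log axis) of all 107 members in replicate 1 (top) and replicate 2 (bottom) against the distance of each hairpin start from the first member in kb, coloured by family, with the detection minimum of 10 counts dashed. In both libraries the tall points stand upstream of 10 kb and downstream of 40 kb, and no member between Mir467c and Mir467e exceeds 3 counts.

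The middle is a tandem array. Hairpins named Mir467 or identical to one (Gm25022) recur there at a median spacing of 2.45 kb, from 2.41 to 2.47 kb, through 12 copies before Mir467e is reached. Of these 12 copies 10 had 0 counts in both libraries, and the others were Mir467a-1, with 0 counts in replicate 1 and 1 in replicate 2, and Mir467b, with 1 in each library. Between successive copies lie 2 to 5 other members. Counting Gm-named loci by their nearest family, all 12 intervals hold a Mir669-type member and 10 hold a Mir466-type one. The 12 microRNA genes of the span that were not analysed are left out of these counts. An interval may therefore hold more hairpins than given here. Over the whole cluster the 107 members have 84 distinct hairpin sequences, because 38 members fall into 15 groups of identical hairpins. The largest group has 7 loci (Mir467a-2, Mir467a-4, Mir467a-5, Mir467a-7, Mir467a-8, Mir467a-9 and Gm25022). All 38 members with an identical copy had 0 counts in both libraries.

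Copies bear directly on these counts, because reads that mapped to several positions stand in a row of their own and were assigned to no locus. They made up 33.9% and 34.3% of the reads of replicates 1 and 2, and how many came from the Sfmbt2 cluster cannot be read from the tables. To describe the repeats, each hairpin was split into every window of 20 bases, and a window was called its own if no other annotated microRNA hairpin held it on either strand. Copies elsewhere in the genome, outside annotated hairpins, were not searched. Hairpins annotated over the same position, on either strand, also count as sharing, although a read there need not map to several positions. Of the 107 members 105 shared at least 1 window with another hairpin, and the median member had 25.3% of windows of its own. Over all loci with a hairpin the median was 98.9%.

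Members without any window of their own had almost no counts. There were 42 such members, 40 of them in the middle of the cluster. Their only count in either library was the single one of Mir467a-1 in replicate 2. Another 17 members had some own windows but under 30%, and 0 of these were detected, against 10 of 48 at 30% or more (20.8%). Outside the cluster 6 of 160 loci (3.75%) and 380 of 1405 (27.0%) were detected in these classes, so a count of 0 among 17 members is near the background. Of the 65 members with some window of their own, 10 were detected (15.4%). The detected members ranged from 32.4% of own windows in Mir297a-2 to 95% in Mir669e. For loci outside the cluster the corresponding figures were 5 detected of 222 without own windows (2.25%) and 386 of 1565 with them (24.7%). The highest count in a library among those 222 loci was 147322. Loci that only overlap another annotated hairpin were not separated from true copies in these classes. No test was made of these counts.

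Own sequence did not go with counts in every member. Among 13 members with at least 80% of own windows, Mir669e and Mir669c were detected (15.4%) and 11 were not, 5 of them with 0 counts in both libraries. Of 1124 loci outside the cluster in that class, 367 were detected (32.7%) and 459 had 0 counts. Mir466g shared no window with any other hairpin and had 0 counts, and Gm22239, the other member that shared none, had 1 count in replicate 1 and 2 in replicate 2. Mir669b, with 87.2% of own windows, and Mir669i, with 73.1%, also had 0 counts. The 3 most abundant members had only intermediate values, 37.9% for Mir467d, 57.4% for Mir467e and 60.3% for Mir467c.

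**Figure D3:**
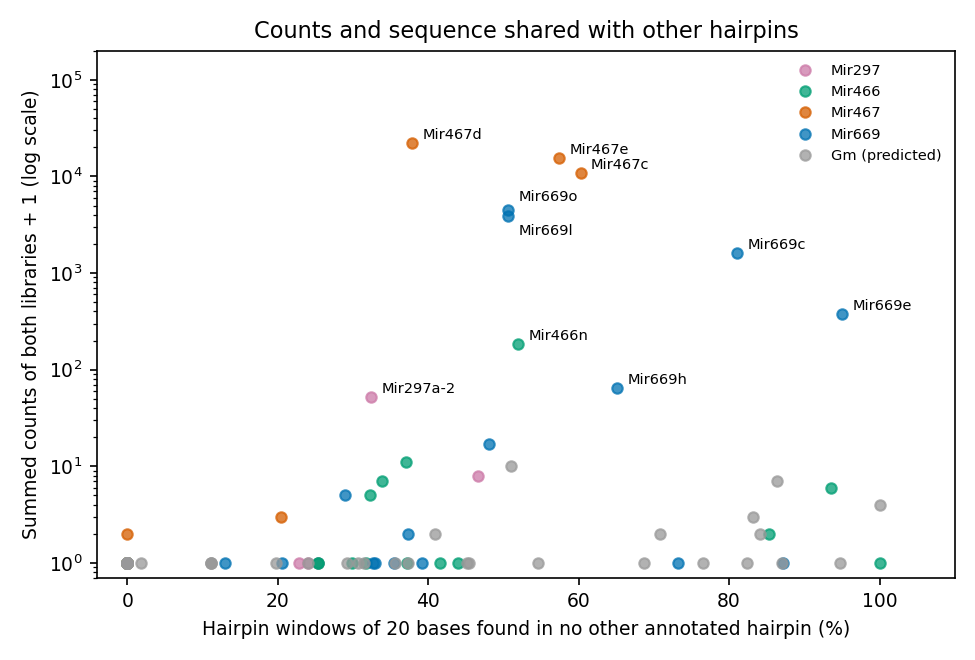
Summed counts of both libraries plus 1 (log axis) against the share of a hairpin's 20-base windows found in no other annotated microRNA hairpin, 1 point per member, coloured by family. Members at 0% stay at or below 1 summed count, while members at higher shares include both the 10 detected loci and many with 0 counts.

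Similar Mir467 hairpins had very different counts. The Mir467d hairpin was 91.6% identical to that of Mir467a-2 over the shorter of the pair and shared a run of 60 bases with it. Against the 9743 and 12357 counts of Mir467d, Mir467a-2 had 0 in both libraries. Mir467c was 89.2% and Mir467e 88.0% identical to Mir467a-2, each with a longest shared run of 34 bases. Mir467b, 98.6% identical to Mir467a-2, had 1 count in each library. Mir669o, a well counted locus, was 93.8% identical to Mir669a-2, which had 0 counts. Mir467a-2 and Mir669a-2 had no window of their own, and Mir467a-2 is in the group of 7 identical loci. Because multimapping reads were not assigned, a count of 0 at such copies does not show that no product was made. These contrasts therefore cannot show how much product such copies made.

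The same families outside Sfmbt2 had almost no assigned counts. Of 10 rows named Mir297, Mir466, Mir467 or Mir669 on chromosomes 3, 5, 7, 9, 10, 11 and 13, 0 were detected. Over all loci 401 of 1973 were detected (20.3%). Mir466q on chromosome 3 had 1 count in each library, and the other 9 had 0, as did 1230 of all 1973 loci. A list of 10 rows is too short to be set apart from that background. All 10 had windows of their own, with a median of 70.0%, against 25.3% for the Sfmbt2 members.

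The difference between the libraries was examined next, with an exact two-sided binomial test of each locus against the share set by the library sizes after TMM scaling and Benjamini-Hochberg adjustment over the 498 loci whose counts summed to 10 or more. The test sets these 2 libraries against each other, which belong to 1 group, and collection day coincides with replicate. Of 12 members tested, 3 were called, 1 higher and 2 lower in replicate 2, against 32.5% of all tested loci (17.5% higher and 15.1% lower), so the share of members called was near the background. Mir467d was higher in replicate 2, with a log2 ratio of 0.11 (exact 95% interval 0.07 to 0.14, adjusted p = 3.61e-07). Mir669l was lower, with -0.19 (-0.28 to -0.09, adjusted p = 0.000294), and so was Mir669o, with -0.16 (-0.24 to -0.07, adjusted p = 0.000925).

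None of these 3 members was called with a dispersion estimated from the same 2 libraries taken as 1 group. Such a dispersion takes in the very difference that is tested, so this outcome cannot decide whether the calls hold. With edgeR's exact test at the common dispersion, which corresponds to a coefficient of variation of 10.8%, 0 of 12 members were called and 0 had an unadjusted p under 0.05, against 1.41% of all tested loci called. The other 9 members did not pass the binomial test. Mir467e had a log2 ratio of -0.03 (-0.08 to 0.01), which turned to 0.0086 when libraries were scaled by their totals alone. Mir467c had -0.06 (-0.12 to -0.01, adjusted p = 0.0641) and Mir669c -0.17 (-0.31 to -0.03, adjusted p = 0.0541). Both passed with DESeq2 size factors and with upper quartile scaling. The widest intervals belonged to the undetected members that were tested, Mir466 with -0.24 (-2.36 to 1.88) and Mir669f with 0.83 (-0.74 to 2.78). Next came Mir297a-2 with -0.40 (-1.26 to 0.44) and Mir669h with -0.65 (-1.43 to 0.11).

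The median log2 ratio of the 12 tested members was -0.18, beside 0.01 over all 498 tested loci, and 10 of the 12 lay below 0, beside 46.8% of all tested loci. The summed counts, most of them from the 3 Mir467 loci, had a log2 ratio of -0.013 (-0.037 to 0.0099) that turned to 0.029 with scaling by totals. Without Mir467d the summed ratio was -0.084 (-0.11 to -0.054). Summed Mir669 counts had a log2 ratio of -0.17 (-0.23 to -0.12) and summed Mir467 counts 0.023 (-0.0029 to 0.049). Members lie in a single Sfmbt2 intron, and whether they came from a shared transcript here was not tested. They cannot be taken as independent of each other.

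**Figure D4:**
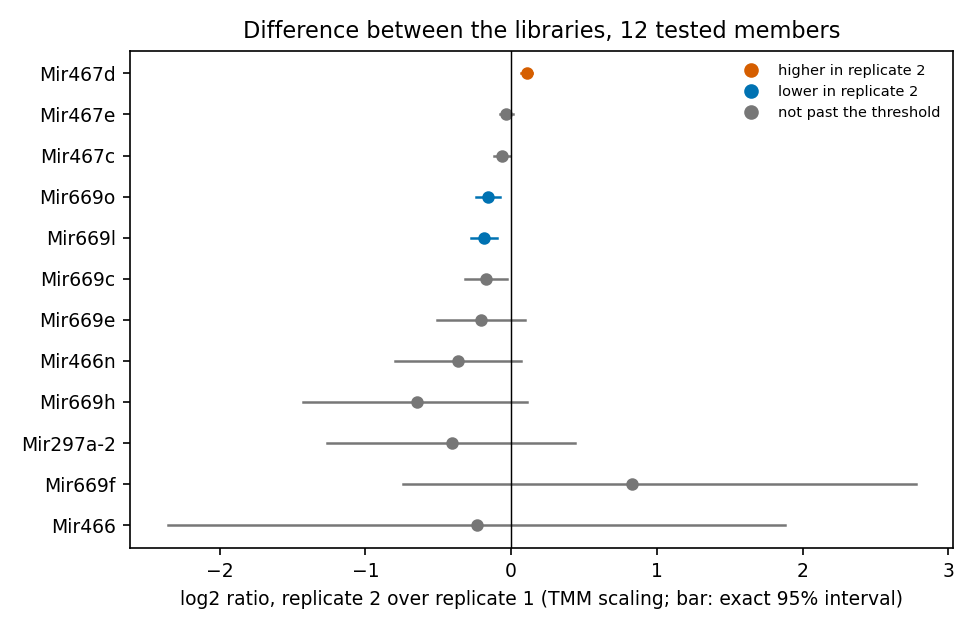
Log2 ratio of replicate 2 over replicate 1 for the 12 tested members (TMM scaling), ordered by mean level with the highest at the top, with exact 95% intervals as bars and colour for members past the binomial threshold. Mir467d lies above 0, Mir669o and Mir669l below it, and the intervals widen toward the low counts of Mir669f and Mir466.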

How the data were processed

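The tables the authors deposited for 2 hindbrain libraries hold raw read counts per microRNA locus, made by assigning aligned reads to annotation M4 on build mm10, per the file lists the authors deposited. The values are not normalized and are given for both strands and for each. The sources used here name neither aligner nor counter. Gene-strand counts (column 3) were used, which were 98.0% and 97.8% of all counts in replicates 1 and 2. Rows of unassigned reads stayed out of totals and tests, with 13.8% and 15.9% of reads unmapped, 33.9% and 34.3% multimapping and 1.99% and 2.26% outside the listed loci. Symbols and coordinates came from GENCODE M21 (GRCm38), matched for 1894 of 1973 loci on the stable part of the identifier.

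CPM is the count per 1000000 gene-strand counts on loci. Log2 ratios added 0.5 to each count and used TMM factors of 0.985 and 1.01. With 1 library per side, no residual degrees of freedom remain for a quasi-likelihood fit, so exact binomial tests were used. Alternatives in scaling, filters, test and run length were tried. Hairpins came from the GENCODE transcripts and were aligned globally. The test was checked on simulated counts. Named loci are the detected members, those called by the binomial test, those next to the detection minimum and, of the 48 members outside the 4 names, those with counts and Gm25022. The rule asked for all 48 by name, and the rest are given only as a number. Members and lists were chosen with earlier results of these data known. Some loci, such as Mir466g, Mir669b, Mir669i, Gm22239 and the aligned Mir467 and Mir669 pairs, were named after their values were seen. Tools were R 4.3.3 with edgeR 4.0.16 and DESeq2 1.42.0 (size factors only), and Python 3.11.15 with scipy 1.17.1, Biopython 1.88, pandas 2.3.3, numpy 2.4.6 and matplotlib 3.10.9.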

Additional observations from a re-analysis of the deposited data

How the results depend on the processing

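The number of detected members was 21 with at least 1 count in each library, and 10 to 11 when either replicate was left out. The cluster's share of counts was 0.227% with all reads of the files as denominator and 0.465% with both strands, and 0.470% to 0.479% when either replicate was left out. The summed log2 ratio was -0.013 with TMM scaling, turned to 0.029 with library totals, and was -0.0303 with DESeq2 size factors, -0.0296 with upper quartile and -0.084 without Mir467d, so its direction depended on the scaling. Of Mir467e the log2 ratio turned to 0.0086 with library totals. The binomial test called 5 of 12 tested members with DESeq2 size factors and 5 of 12 with upper quartile. It called 5 of 8 when 100 summed counts were required. Among all tested loci the calls were 168 of 498, 169 of 498 and 164 of 311, in the same order. The exact test of edgeR with the common dispersion called 0 members. In each of these 3 settings with 5 calls the additions were Mir467c and Mir669c, both lower. The count of members sharing a run with another hairpin was 105 at 18 bases and 101 at 25 bases. Summing members with the same mature sequence, and matching mature sequences to the genome, were not run. No paired analysis was possible because there is 1 group. Counts of members with near-identical copies leave out multimapping reads, which limits all levels given here.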
